A study of Mus musculus with 16 samples.

Results

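The 10 genes described here form the core of the circadian clock: Per1, Per2, Per3, Cry1, Cry2, Nr1d1, Nr1d2, Clock, Npas2 and Bmal1, the last of which the array annotation lists under its older symbol Arntl. They were chosen by their symbols, with their measured levels in these hearts already known, so their differences between groups are given as a description. All 10 of them were found among the 16593 gene symbols of the array, on 17 of its 25697 probes. Ventricles of 16 mice on the C57BL6/J background were profiled on Illumina MouseRef-8 v2.0 arrays, with 4 mice in each of 4 groups: WT littermates and BACHD mice, young (3 mo) and aged (15 mo). BACHD mice carry the whole human huntingtin gene, with a lengthened polyglutamine stretch, on a bacterial artificial chromosome, and WT mice carry no transgene; no group was treated. The time of day at which these hearts were taken was not given in the sources used here. Levels are log2 of background-corrected and quantile-normalized signal, and a probe was counted as detected on an array where its detection p-value was under 0.01.

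The clock is a feedback loop of transcription that runs in most cells, heart muscle included, with a period close to a day. CLOCK, or its relative NPAS2, pairs with BMAL1 and switches on the Per and Cry genes and the Nr1d genes through E-box sequences, and the PER and CRY proteins then block the pair. NR1D1 and NR1D2 (REV-ERB alpha and beta) are nuclear receptors that repress Bmal1 through the AGGTCA motif, so that transcripts of Bmal1 and of the Per and Nr1d genes peak at opposite times of day.

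The RefSeq promoter windows of the genes (250 bases before to 50 after a listed start, build GRCm38.p6) are shown for Per1, Cry2, Nr1d1 and Bmal1, because the results below turn on these genes from the activated and from the activating arm of the loop. Capitals mark CACGTG (E-box) in Per1, AACGTG (the letters CACGTT read on the other strand, a variant E-box) in Cry2 and Nr1d1, and AGGTCA in Bmal1.
Per1, chr11:69098699-69098998, plus strand: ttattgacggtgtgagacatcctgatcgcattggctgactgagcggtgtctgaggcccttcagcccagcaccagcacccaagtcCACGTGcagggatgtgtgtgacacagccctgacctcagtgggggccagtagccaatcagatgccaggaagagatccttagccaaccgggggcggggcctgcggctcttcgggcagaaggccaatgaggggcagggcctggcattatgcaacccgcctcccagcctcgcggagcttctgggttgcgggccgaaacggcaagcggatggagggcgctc
Cry2, chr2:92434020-92434319, minus strand: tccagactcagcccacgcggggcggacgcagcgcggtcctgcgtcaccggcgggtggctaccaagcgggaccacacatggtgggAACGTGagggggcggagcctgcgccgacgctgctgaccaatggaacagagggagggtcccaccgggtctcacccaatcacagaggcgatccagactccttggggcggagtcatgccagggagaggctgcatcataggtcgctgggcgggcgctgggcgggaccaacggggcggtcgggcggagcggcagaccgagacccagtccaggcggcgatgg
Nr1d1, chr11:98775328-98775627, minus strand: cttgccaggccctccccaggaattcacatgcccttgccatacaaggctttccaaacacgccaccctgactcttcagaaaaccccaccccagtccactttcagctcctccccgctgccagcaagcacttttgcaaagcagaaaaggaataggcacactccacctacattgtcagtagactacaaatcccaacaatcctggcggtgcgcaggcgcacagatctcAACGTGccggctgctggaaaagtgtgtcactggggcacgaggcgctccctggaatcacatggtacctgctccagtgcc
Bmal1, chr7:113207261-113207560, plus strand: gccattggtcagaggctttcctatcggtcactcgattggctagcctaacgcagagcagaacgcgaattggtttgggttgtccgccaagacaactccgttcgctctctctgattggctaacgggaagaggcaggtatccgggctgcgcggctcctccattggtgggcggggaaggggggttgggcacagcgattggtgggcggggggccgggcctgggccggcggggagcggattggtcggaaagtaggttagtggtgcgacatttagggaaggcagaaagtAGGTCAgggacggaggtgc
Of the 10 genes, 9 had a promoter entry, with 13 windows in all; Per2 had none. CACGTG stood in the first listed window of 2 of these 9 genes (Cry1 and Per1), beside 7.24% of 27025 gene promoters of the same length. CACGTT was found in 3 (Cry1, Cry2 and Nr1d1; 4.77% of all), the D-box TTANNTAA in 1 (Per3; 6.08% of all) and AGGTCA in 2 (Per1 and Nr1d2; 4335 of the 27025), while Clock and Bmal1 held AGGTCA only in a further listed window. TGACGTCA, the cyclic AMP response element, was in none of them, beside 1.88% of all promoters. Both strands were searched for each motif, and these are matches of letters and not measured binding sites.

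The 16 arrays were alike in depth, with 9780 to 10755 probes detected and correlations of 0.984 to 0.994 between arrays. Ventricular muscle genes were high on every array, with a mean log2 level of 5 genes between 14.34 and 14.46. Of 4 atrial muscle genes, Sln and Myl7 were detected on 4 arrays, Myl4 on all 16 and Bmp10 on none. Their mean level lay between 5.25 and 5.62 on 12 arrays, and was raised in aged WT mice 2 and 4 (7.10 and 8.73) and in aged BACHD mice 3 and 4 (7.12 and 6.82). The differences of aged hearts that the results turn on are therefore also given without these 4.

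Of the 10 clock genes, 8 were detected on at least 4 arrays. Per1, Cry2, Nr1d1, Nr1d2 and Clock were detected in all 16 hearts, Per2 and Bmal1 in 15, and Per3 in 5. Cry1 and Npas2 were not well above background in any heart, with log2 levels from 4.35 to 4.57 and from 4.63 to 5.22, and no fold is given for them. Where a gene had several probes, the probe of highest mean signal is described.

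**Figure D1:**
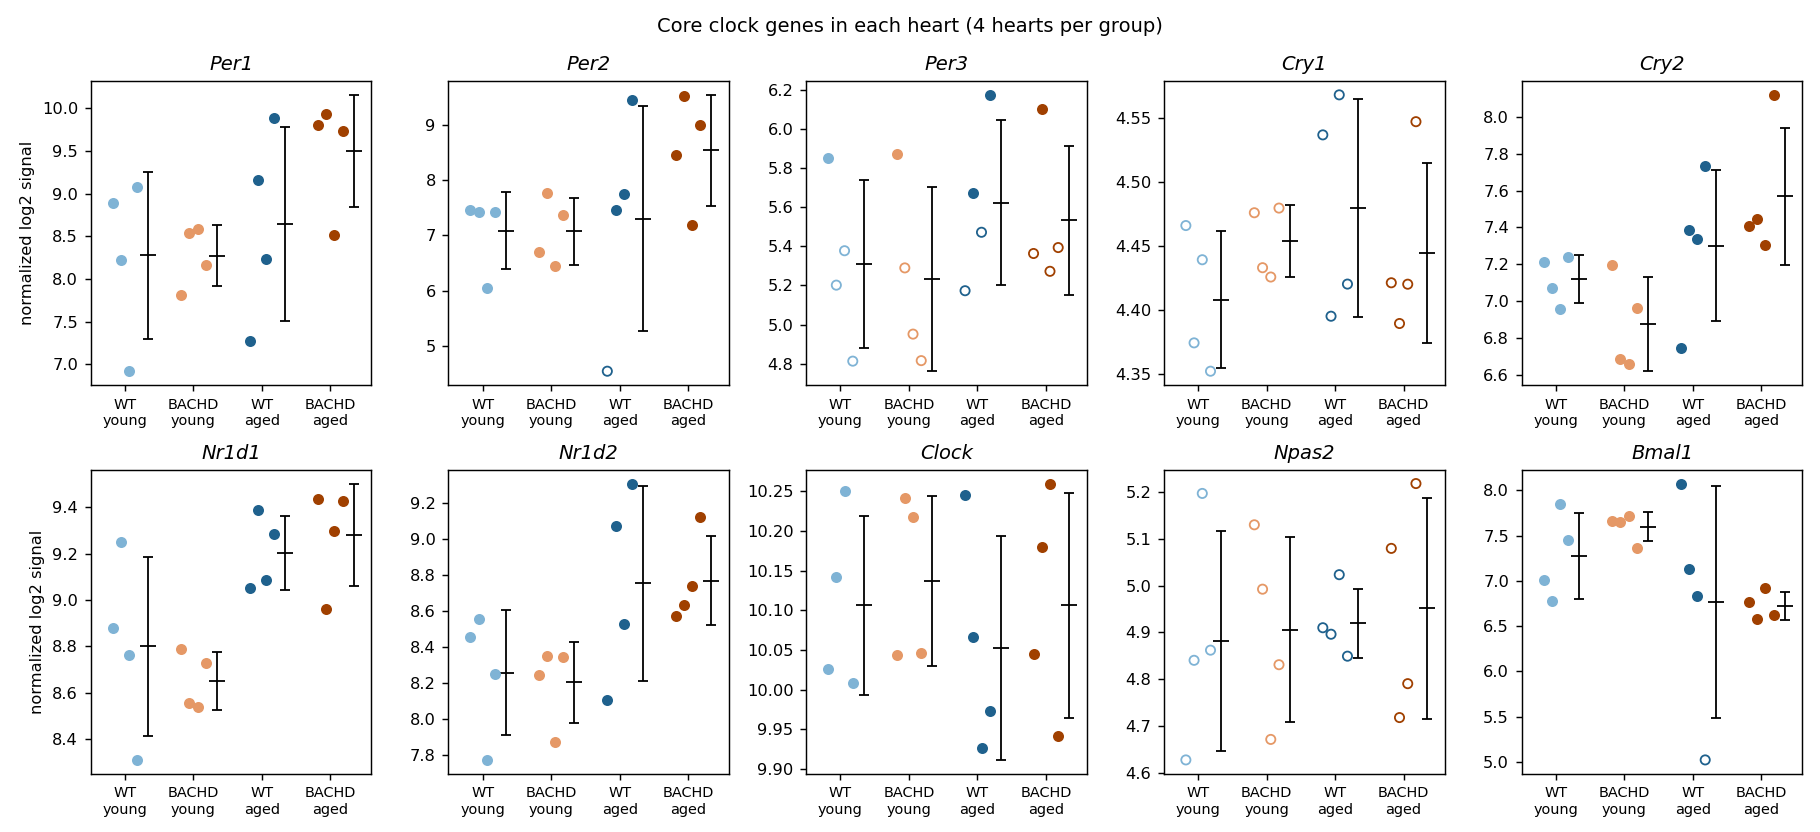
Normalized log2 signal of the 10 core clock genes in each heart, by group; each panel has its own vertical axis, filled points are detected and open points are not, and the black marks show the mean and SD of 4 hearts. Per2 in aged WT hearts runs from 4.55 to 9.44, whereas Clock stays between 9.93 and 10.26 in all hearts.

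Among the repressors, Per1 encodes a period protein whose gene also answers to hormones and other acute signals. In young WT mice 1 to 4 its log2 level was 8.90, 8.23, 6.92 and 9.07, and in young BACHD mice it was 7.81, 8.53, 8.58 and 8.16. Aged WT mice had levels of 7.27, 9.16, 8.24 and 9.89, and aged BACHD mice 9.81, 9.93, 8.52 and 9.74. Here young WT mouse 3 and aged WT mouse 1 were low, aged BACHD mouse 3 lay below the rest of its group, and every pair of groups overlapped. The group means were 8.28 ± 0.98 (SD, n = 4), 8.27 ± 0.36, 8.64 ± 1.14 and 9.50 ± 0.66 in the same order. The second Per1 probe ran in parallel, with a difference between aged and young BACHD hearts of 1.01 on the log2 scale against 1.23 for the first.

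Per2, the period gene most closely tied to the phase of the loop, varied more than any other member. Its log2 level in young WT mice 1 to 4 was 7.45, 7.42, 6.05 and 7.42, and in young BACHD mice 6.70, 7.77, 6.45 and 7.37. In aged WT mice it was 4.55, 7.45, 7.75 and 9.44, where the lowest, mouse 1, was not detected and mouse 4 was the highest of the group. Aged BACHD mice stood at 8.45, 9.52, 7.18 and 8.98, and overlapped with all the other groups. The SD of aged WT hearts was 2.03, compared to 0.69 in young WT, 0.61 in young BACHD and 1.00 in aged BACHD hearts. Another Per2 probe gave the same ranking of the aged WT hearts (5.33, 7.25, 7.47 and 9.10), and the last was not detected on any array. Per3, a period gene that is not needed for the loop to run in mice, was near background, with group means of 5.31 ± 0.43, 5.23 ± 0.47, 5.62 ± 0.42 and 5.53 ± 0.38 (SD, n = 4).

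Cry2 encodes a cryptochrome that blocks CLOCK and BMAL1. It measured 7.21, 7.07, 6.96 and 7.24 in young WT mice 1 to 4 and 7.20, 6.68, 6.65 and 6.96 in young BACHD mice. The aged WT levels were 6.75, 7.39, 7.34 and 7.73, and the aged BACHD levels 7.41, 7.45, 7.30 and 8.12. All aged BACHD hearts were above all young BACHD hearts, while the WT ages overlapped because aged WT mouse 1 was the lowest of the WT hearts.

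Nr1d1, the gene of REV-ERB alpha, had log2 levels of 8.88, 9.25, 8.76 and 8.31 in young WT mice 1 to 4 and of 8.79, 8.55, 8.54 and 8.73 in young BACHD mice. In aged WT mice the levels were 9.05, 9.39, 9.09 and 9.29, and in aged BACHD mice 9.44, 8.96, 9.30 and 9.43. Young WT mouse 2 reached into the range of the aged WT hearts, whereas the BACHD ages were fully apart. The second Nr1d1 probe had a smaller age difference in BACHD hearts (0.41 against 0.63), and its groups overlapped. For Nr1d2, the gene of REV-ERB beta, the levels were 8.45, 8.55, 7.77 and 8.25 in young WT mice and 8.24, 8.35, 7.87 and 8.34 in young BACHD mice. They were 8.11, 9.07, 8.53 and 9.31 in aged WT and 8.57, 8.63, 8.74 and 9.12 in aged BACHD mice. The lowest aged BACHD heart was above the highest young BACHD heart. Aged WT mouse 1 again lay among the young hearts, and aged WT mouse 3 was just below young WT mouse 2.

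On the activating side, Clock was nearly flat. Its group means were 10.11 ± 0.11, 10.14 ± 0.11, 10.05 ± 0.14 and 10.11 ± 0.14 (SD, n = 4) in young WT, young BACHD, aged WT and aged BACHD hearts, and all the groups overlapped. Bmal1, whose product is the partner of CLOCK, ran from 5.02 to 8.07. It was 7.01, 6.78, 7.85 and 7.46 in young WT mice 1 to 4, and 7.66, 7.65, 7.72 and 7.36 in young BACHD mice. Aged WT mice had 8.07, 7.13, 6.84 and 5.02, where mouse 4 was not detected, and aged BACHD mice had 6.77, 6.58, 6.92 and 6.62. Both extremes of Bmal1 therefore lay in aged WT hearts, and the same mice had the lowest (mouse 1) and the highest (mouse 4) Per2 of that group. Every aged BACHD heart had less Bmal1 than every young BACHD heart.

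In the comparison of BACHD with WT hearts at 3 mo, none of the 10 clock genes was called at the P threshold of 0.005 set in the methods, beside 0.483% of all 25697 probes. No clock gene had groups that did not overlap, compared to 2.88% of probes. The widest differences were Bmal1 at 0.33 (95% interval -0.61 to 1.26) and Cry2 at -0.25 (-0.68 to 0.18) on the log2 scale. At 15 mo none was called either, beside 0.895% of all probes, and none was without overlap, beside 3.21%. Per2 was 1.24 higher in BACHD hearts (-0.41 to 2.88) and Per1 0.86 higher (-0.27 to 1.99), and both intervals include 0. Without the 4 hearts of raised atrial genes, which leaves 2 aged hearts of each genotype, these differences were 2.84 and 2.12, Bmal1 moved from -0.04 to -0.79, and Per1 was called. Cry2 was then 0.38, Nr1d1 0.13 and Nr1d2 0.29 higher, compared to 0.27, 0.08 and 0.01 with all hearts. The aged WT hearts left were mice 1 and 3. Of all hearts, aged WT mouse 1 had the lowest Per2 (4.55, not detected) and the highest Bmal1 (8.07), so these values depend strongly on it. More of all 25697 probes were also called at 15 mo in this setting. The medians over the 8 detected clock genes were -0.03 at 3 mo and 0.07 at 15 mo, and those over the 10960 probes detected on at least 4 arrays were 0.01 and 0.00.

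**Figure D2:**
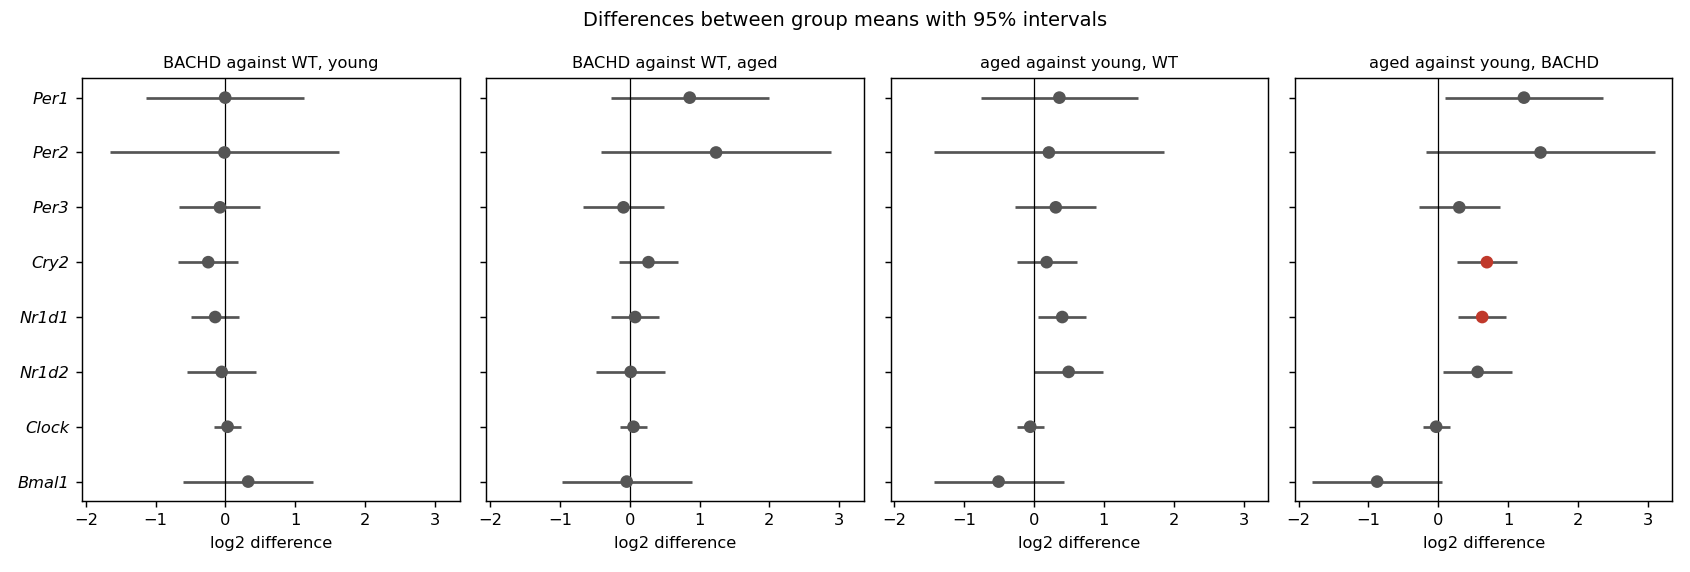
Log2 difference between group means for the 8 clock genes detected on at least 4 arrays, with 95% intervals as lines, in 4 comparisons of 4 against 4 hearts; red points are called at the P threshold. The 2 called points are Cry2 (0.70) and Nr1d1 (0.63) in aged against young BACHD hearts.

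Age was compared within each genotype. In WT hearts none of the 10 genes was called (2.77% of all probes were) and none had ages that did not overlap (6.81% of probes). Nr1d2 was 0.50 higher in aged WT hearts (0.00 to 0.99) and Nr1d1 0.40 higher (0.06 to 0.75), whereas Bmal1 differed by -0.51 (-1.44 to 0.42). Leaving out young WT mouse 2 brought Nr1d1 past the threshold, at 0.55, and leaving out aged WT mouse 1 did so for Nr1d2, at 0.71. Without the 4 hearts of raised atrial genes several WT age differences turned in direction: Per1 went from 0.36 to -0.53, Per2 from 0.21 to -0.93, Cry2 from 0.18 to -0.08 and Bmal1 from -0.51 to 0.18, while Nr1d1 was 0.27 and Nr1d2 0.06 higher. No direction with age is therefore given for these genes in WT hearts.

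In BACHD hearts, 2 of the 10 clock genes were called, both higher with age, where 5.15% of all probes were called. They were Cry2, by 0.70 (SE 0.20, 95% interval 0.27 to 1.12, 1.62-fold), and Nr1d1, by 0.63 (SE 0.16, 0.29 to 0.97, 1.55-fold). The second Nr1d1 probe, at 0.41, was not called, so that the call for Nr1d1 rests on 1 probe. The young and aged groups did not overlap for 4 of the 10 genes, beside 8.90% of probes: Cry2, Nr1d1 and Nr1d2 were higher and Bmal1 was lower in the aged hearts. Nr1d2 differed by 0.56 (0.07 to 1.06), Per1 by 1.23 (0.10 to 2.36), Per2 by 1.46 (-0.18 to 3.11) and Bmal1 by -0.88 (-1.81 to 0.06). Clock differed by -0.03, with an interval of -0.22 to 0.16. The called and the non-overlapping genes were all among the 8 detected on at least 4 arrays. Of the 10960 probes so detected, 1210 were called and 1803 did not overlap. The median over the 8 detected genes was 0.60 and that over the probes detected on at least 4 arrays 0.00. Because this comparison entered the choice of the genes, nothing is read from these counts against the background.

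Both BACHD calls were lost when certain single hearts were left out. Cry2 was no longer called without young BACHD mouse 2, 3 or 4 or aged BACHD mouse 2 or 4 (differences of 0.51 to 0.73), and Nr1d1 was no longer called without aged BACHD mouse 1 or 4 (0.58 and 0.58). Without the 4 hearts of raised atrial genes the differences were 0.55 for both, and neither was called. Those of Per1, Per2, Nr1d2 and Bmal1 were then 1.60, 1.92, 0.40 and -0.93. Among other marker lists, the mean of 6 immediate early genes was 6.65 to 6.91 in young BACHD and 5.89 to 6.51 in aged BACHD hearts, which did not overlap. Of these 6, Nr4a1 and Ier2 were not detected on any array. In WT hearts the mean of the 6 overlapped between ages, at 6.22 to 6.76 when young and 5.98 to 7.42 when aged. The mean of 2 leukocyte genes, of which Ptprc was not detected on any array, was 5.76 to 6.05 and 5.20 to 5.80. The mean of 4 fibroblast genes, all detected on 16 arrays, was 9.46 to 9.61 in young BACHD and 9.09 to 9.57 in aged BACHD hearts, where mice 1, 2 and 4 were below every young BACHD heart. The mean of 4 glucocorticoid targets overlapped, at 9.28 to 9.77 and 9.25 to 10.19. That of 2 red blood cell genes also overlapped, at 12.72 to 13.33 and 13.25 to 13.49. So did that of 2 adipocyte genes near background, at 4.68 to 5.07 and 4.54 to 4.70. The part of these transcripts in the clock differences was not tested. In whole ventricle, fewer cells of a type and less RNA per cell cannot be told apart.

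Whether the genotype difference itself changed with age was tested for every probe, and 0.611% of probes and none of the 10 clock genes were called. For Per2 this difference of differences was 1.25 (-1.07 to 3.58), for Cry2 0.51 (-0.09 to 1.12), for Nr1d1 0.22 (-0.26 to 0.71) and for Bmal1 -0.37 (-1.69 to 0.95). Without the 4 hearts of raised atrial genes these values were 2.85, 0.63, 0.28 and -1.11, and none was called. A different effect of age in the genotypes was thus not shown, and the intervals were wide.

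The spread between hearts of the same group was itself measured. The SD within groups was 1.22 for Per2, 0.84 for Per1, 0.69 for Bmal1, 0.43 for Per3, 0.36 for Nr1d2, 0.31 for Cry2, 0.25 for Nr1d1 and 0.13 for Clock, on the log2 scale. The median SD of the 8827 probes detected on all arrays was 0.16. Per2 was more variable than 99.98% of those probes, Per1 than 99.9%, Bmal1 than 99.8%, Per3 than 98.7%, Nr1d2 than 97.4%, Cry2 than 94.9% and Nr1d1 than 84.7%. Clock, at 29.9%, was the exception among the detected genes. Each of these SDs was pooled over the 4 groups. For Bmal1 the SD was 1.28 in aged WT hearts, where mouse 4 was not detected. It was 0.48 in young WT, 0.16 in young BACHD and 0.15 in aged BACHD hearts. For Per2 it was 2.03 in aged WT hearts and 0.61 to 1.00 in the other groups. Per2 and Bmal1 were detected on 15 arrays and Per3 on 5, unlike the probes they were ranked against.

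**Figure D3:**
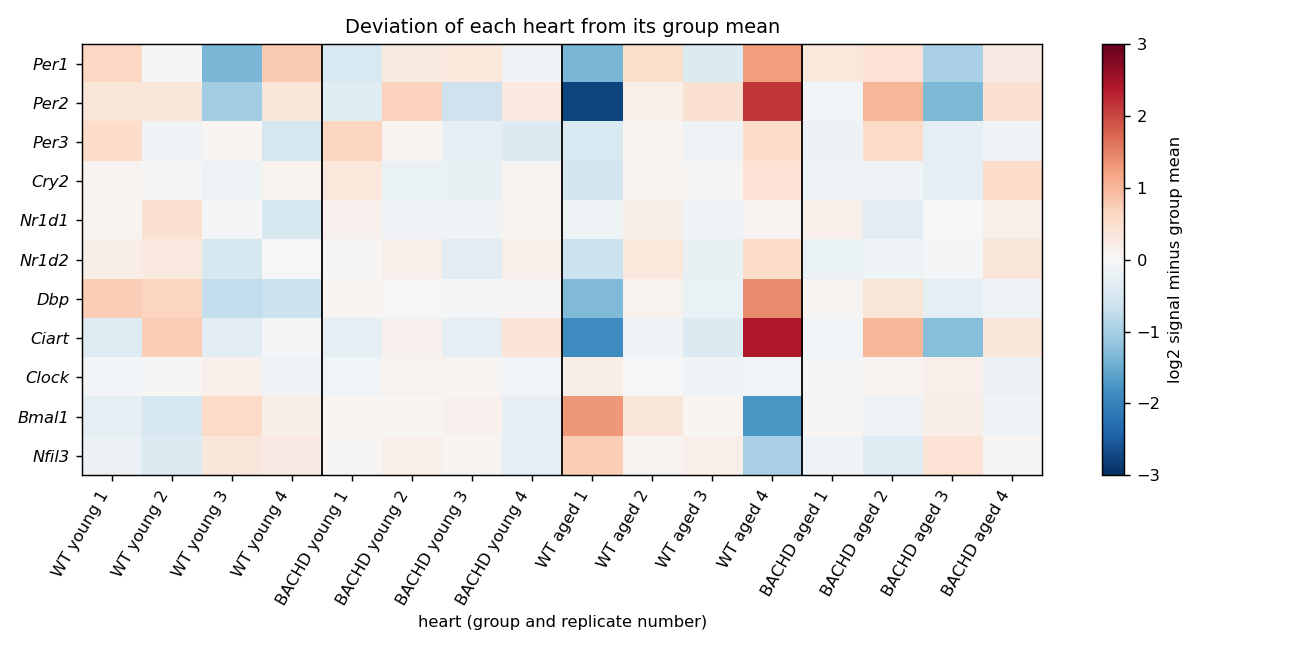
Log2 signal of 8 clock genes and of the clock pathway genes Dbp, Ciart and Nfil3 in each heart, as the deviation from the mean of its group (red above, blue below). Aged WT mouse 1 is low in Per1, Per2, Dbp and Ciart and high in Bmal1 and Nfil3, and aged WT mouse 4 shows the opposite.

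Whether these deviations ran together was examined for pairs of genes. After each gene was centred on its group means, which removes every group difference, all 45 pairs of the 10 genes were correlated over the 16 hearts, with p-values from 100000 permutations within groups (two-sided) and Benjamini-Hochberg adjustment over the 45 pairs. Bmal1 ran against Per2 (r = -0.85, permutation p = 0.00723, adjusted p = 0.0813; rho = -0.68, p = 0.00518, adjusted p = 0.108). It also ran against Nr1d2 (r = -0.76, permutation p = 0.0129, adjusted p = 0.0967; rho = -0.62, p = 0.0335, adjusted p = 0.301). Per1 followed Per2 (r = 0.83, permutation p = 0.00246, adjusted p = 0.0522; rho = 0.62, p = 0.0284, adjusted p = 0.301), and Cry2 followed Nr1d2 (r = 0.75, permutation p = 0.00348, adjusted p = 0.0522; rho = 0.69, p = 0.00719, adjusted p = 0.108). These 4 pairs failed the adjustment. Without the 2 farthest hearts r was 0.73 for Per1 and Per2 and 0.62 for Cry2 and Nr1d2. Over the 12 hearts without raised atrial genes it was 0.65 and 0.55.

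The pair that passed it was Cry2 and Clock, which ran in opposite directions (r = -0.83, permutation p = 0.00069, adjusted p = 0.0310; rho = -0.85, p = 0.00122, adjusted p = 0.0549 for the ranks). Without the 2 hearts farthest from the median of Cry2 (aged BACHD mouse 4 and aged WT mouse 1) r was -0.74, and over the 12 hearts without raised atrial genes it was -0.89, but in neither setting did this or any other pair pass the adjustment. Leaving out the 2 farthest hearts of Bmal1 or Per2, which were aged WT mice 1 and 4, brought r between Per2 and Bmal1 to -0.56 and between Nr1d2 and Bmal1 to -0.53. The size of these r values thus rests in part on those 2 hearts, and mouse 4 is also the heart of the highest atrial genes. Over the 12 hearts without raised atrial genes r was -0.85 for Per2 and Bmal1 and -0.84 for Nr1d2 and Bmal1. Each aged group then keeps 2 hearts, whose deviations from their mean are mirror images. Every r over these hearts thus holds fewer than 12 separate values, and aged WT mouse 1 is still among them.

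**Figure D4:**
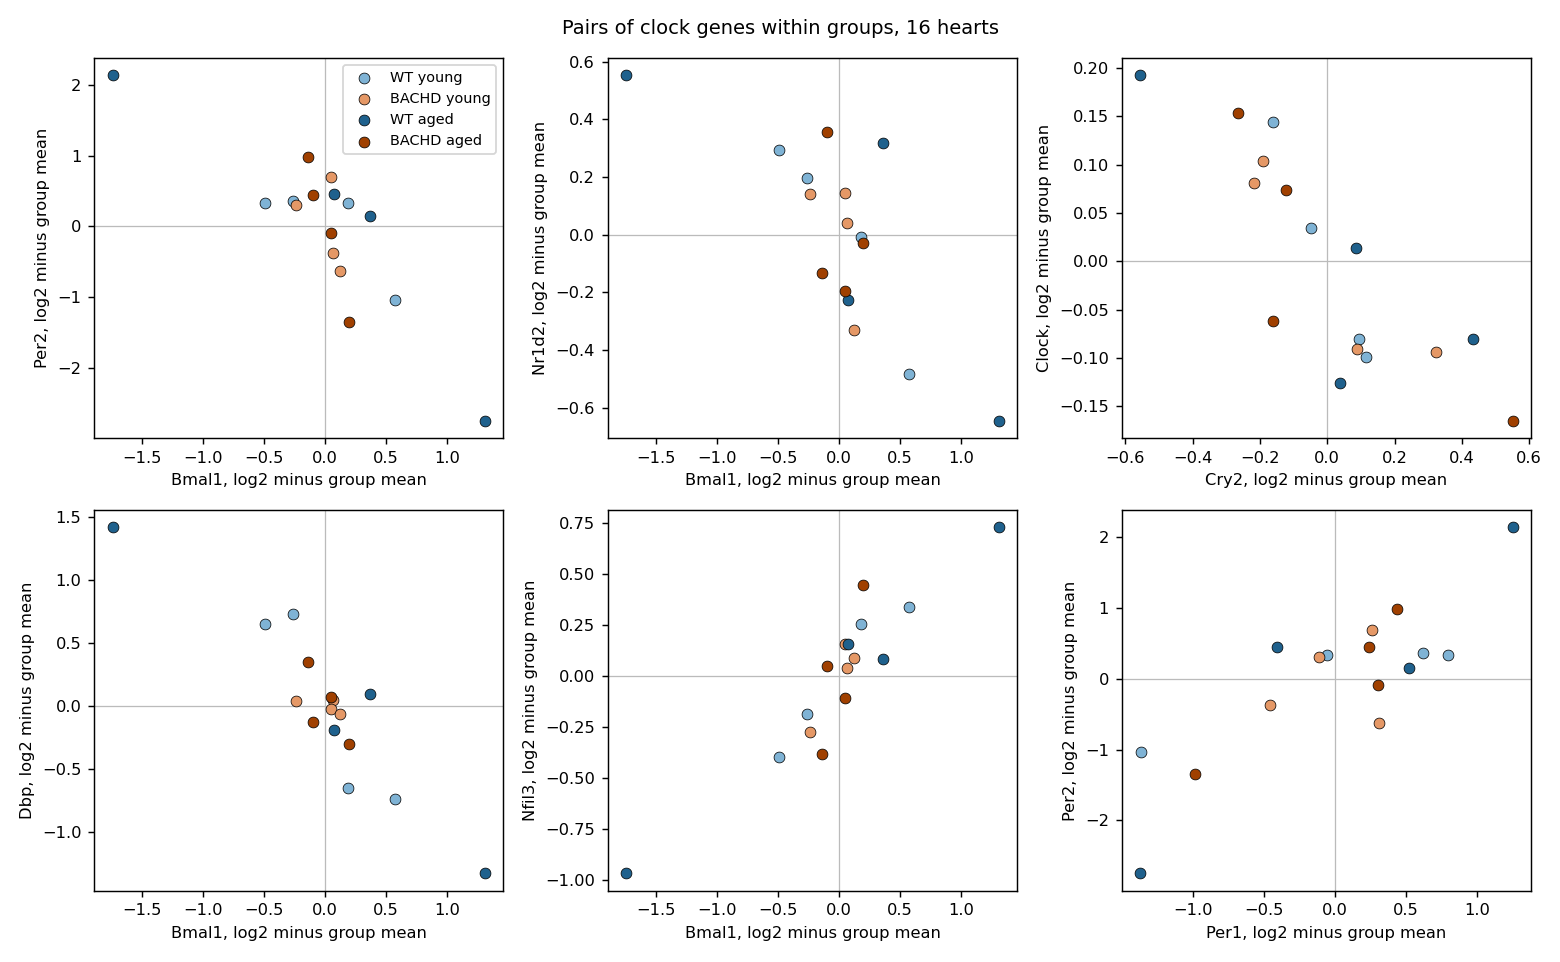
Deviations of pairs of genes from their group means on the log2 scale, 16 hearts coloured by group. Bmal1 falls as Per2, Nr1d2 and Dbp rise (r = -0.85, -0.76 and -0.91) and rises with Nfil3 (r = 0.93), with aged WT mice 1 and 4 at the ends of these 4 trends. The other panels show Cry2 against Clock (r = -0.83) and Per1 against Per2 (r = 0.83).

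The transcripts most like Bmal1 were then looked up among the 10351 other probes with a gene symbol that were detected on at least 4 arrays, by the correlation of deviations over the same 16 hearts. The highest was Nfil3 (r = 0.93), a repressor of D-box genes that is itself under the clock, followed by Pde2a, Plxdc1, Ly86 and Ankrd23 (0.91 to 0.88). The lowest was Dbp (-0.91), a D-box activator driven by CLOCK and BMAL1, followed by Tcap, a second Per2 probe, Ciart and Epas1 (-0.91 to -0.88). Over all 16 hearts the clock genes Nfil3 and Dbp were thus at the far ends of these 10351 probes. No test was made for this place. Without the 2 farthest hearts r was 0.81 for Nfil3 and -0.79 for Dbp. Tcap, at -0.81, was then lower than Dbp, Epas1 was at -0.79 and Ciart at -0.55. The other high transcripts ran from 0.57 (Pde2a) to 0.71 (Plxdc1). Over the 12 hearts without raised atrial genes r was 0.93 for Nfil3 and -0.90 for Dbp.

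Per1 was most like Csrnp1 (0.93), Rab11a, Usp2, Depp1 and Ttpal, and least like Phf11d (-0.88), Gab3, Cavin2, Adam19 and Col4a1. Usp2 (by its probe of lower signal), which encodes a deubiquitinase with a daily rhythm in many tissues, was the only other clock pathway gene among these 10. For Nr1d1 the highest r values were with Pcca (0.86), Armc10, Lsm14b, Trps1 and Irf3, the lowest were with Rps25 (-0.90), Fam107b, Klhdc4, Ssbp1 and Pi4ka, and none of them is in the clock lists used here. Its r was 0.47 with Nr1d2 (rho = 0.62), -0.31 with Bmal1 and -0.03 with Per1. Without the 2 farthest hearts of Nr1d1, its highest list ran from 0.86 (Pcca) to 0.48 (Lsm14b). Its lowest list then ran from -0.74 (Rps25) to -0.51 (Klhdc4). Lsm14b was detected on 7 arrays and Ssbp1 on 4. Without the 2 farthest hearts of Per1, its lists ran from 0.90 (Csrnp1) to 0.73 (Ttpal) and from -0.86 (Col4a1) to -0.76 (Gab3).

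Beyond the core, 22 other clock pathway genes were examined. None of the 22 was called between genotypes at 3 mo or at 15 mo, between ages in WT hearts, or in the difference of differences, by the probe of highest signal (0.483%, 0.895%, 2.77% and 0.611% of all probes were called). In aged against young BACHD hearts 4 of 22 were called, 2 higher and 2 lower, beside 5.15% of all probes, and 7 had groups that did not overlap, beside 8.90%. All of these were among the 14 genes detected on at least 4 arrays. Of the 10960 probes so detected, 1210 were called and 1803 did not overlap. The list was chosen with earlier results of these data known, so nothing is read from these counts. The median difference over the 22 was 0.07, and it was 0.28 over the 14 detected on at least 4 arrays.

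Dbp showed the clearest separation. Its log2 level was 10.15, 10.08, 10.03 and 10.14 in young BACHD mice 1 to 4 and 12.26, 12.54, 11.89 and 12.07 in aged BACHD mice, a difference of 2.09 (SE 0.45, 4.26-fold, limma adjusted p = 0.0213). WT hearts ran from 10.11 to 11.57 when young and from 10.24 to 12.98 when aged. Young WT mice 3 and 4 and aged WT mouse 1 were thus close to the young BACHD hearts, and aged WT mouse 4 was above all BACHD hearts. Ciart, a repressor of the CLOCK and BMAL1 pair, was 2.38 higher in aged BACHD hearts (SE 0.67, adjusted p = 0.0683), and was detected in 1 of 4 young and 4 of 4 aged BACHD hearts. Without background correction the Ciart difference was 1.20. Its second probe was detected in 0 of 4 young and 4 of 4 aged BACHD hearts. Nfil3 was 1.03 lower (log2 difference -1.03, SE 0.28, adjusted p = 0.0625) and Timeless, a replication fork protein related to the fly clock gene of that name, had a difference of -0.71 (SE 0.20, adjusted p = 0.0654). The other Timeless probe was not detected on any array, so that the call for Timeless rests on 1 probe. The difference on that undetected probe was 0.22 (SE 0.10, adjusted p = 0.320), and it was not called. Of the 4 called genes only Dbp was also under an adjusted p of 0.05.

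**Figure D5:**
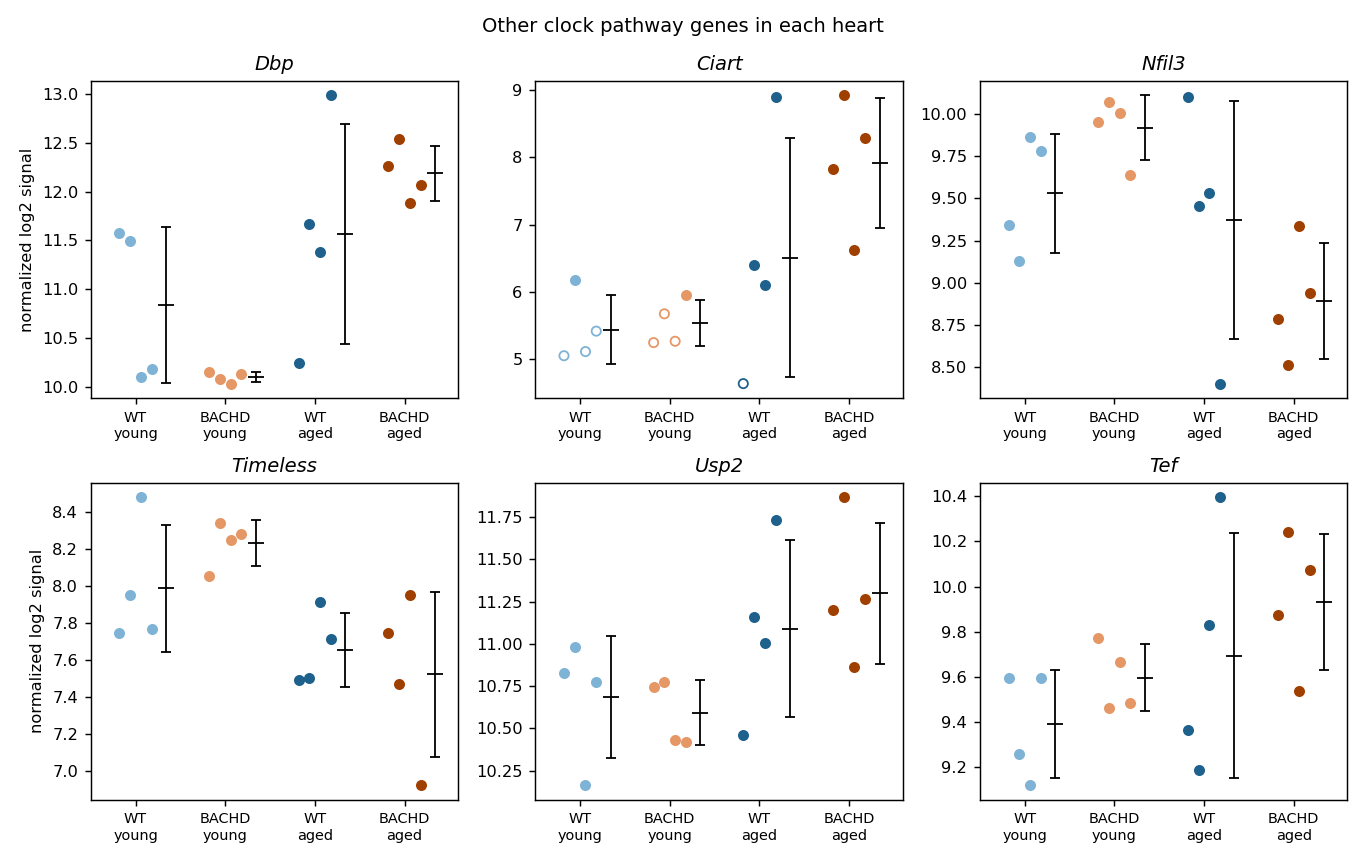
Normalized log2 signal of 6 other clock pathway genes in each heart; points, open points and black marks are as for the core genes, and each panel has its own vertical axis. Dbp lies between 10.03 and 10.15 in young BACHD hearts and between 11.89 and 12.54 in aged BACHD hearts, and WT hearts run from 10.11 to 12.98.

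Other targets moved less or not detectably. Tef, a relative of Dbp, differed by 0.34 (SE 0.22, adjusted p = 0.542) on its brighter probe and by -0.75 (SE 0.14, adjusted p = 0.0120) on another, which was also called between WT ages (-0.57, SE 0.14, adjusted p = 0.0997). Its probes disagreed in direction and no direction is given for the gene. Bhlhe40, a repressor at E-boxes, differed by 0.29 (SE 0.27, adjusted p = 0.718), while Hlf and Bhlhe41 were not detected on any array. Usp2, Rora and Cipc did not overlap between young and aged BACHD hearts and were not called (0.70, 0.29 and -0.15). A second Rora probe, not detected on any array, differed by -0.04, and its groups overlapped. Further Usp2 probes differed by 0.55 and 0.68, and their groups overlapped too.

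Single hearts mattered here as well. Without aged WT mouse 4, the heart of lowest Bmal1 and highest atrial genes, Nfil3 and Ciart were called between genotypes at 15 mo, and Dbp and Nfil3 were called in the difference of differences. Without the 4 hearts of raised atrial genes, Dbp, Nfil3 and Ciart were called in the difference of differences, at 2.34, -1.56 and 2.91 compared to 1.36, -0.87 and 1.31 with all hearts. The Dbp, Ciart and Nfil3 differences between aged and young BACHD hearts were then 2.31, 2.85 and -1.27. This setting leaves 2 aged hearts of each genotype, mice 1 and 3 in WT. Aged WT mouse 1 had the lowest Dbp (10.24) and Ciart (4.64, not detected) of the aged hearts. It also had the highest Nfil3 of all hearts (10.10). More of all probes were called in the difference of differences in this setting as well.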

How the data were processed

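Ventricular RNA of 16 mice was hybridised to Illumina MouseRef-8 v2.0 arrays; groups and replicate numbers came from the sample labels, the ages from the study's methods. The authors deposited probe intensities without normalization. Each deposited intensity came with its detection p-value. The authors also deposited log2 values, equal to log2 quantile-normalized signals within 5.0e-09, which served as an alternative. Precision is limited by the number of arrays, 4 per group.

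Intensities were corrected by normexp in limma 3.58.1 (R 4.3.3; offset 16; the negative controls were derived from detection p-values), then quantile-normalized, then log2-transformed. All 25697 probes were fitted with 4 group means (lmFit, eBayes), called at an unadjusted P below 0.005, and adjusted by Benjamini-Hochberg over all probes. Symbols came from RefSeq by the gene ID of the platform annotation for 23962 probes, and otherwise from that annotation itself. In all, 23978 probes had 1 symbol and 1719 had none. The members, lists and tests were chosen with earlier results of these data known, and no p is given for group differences of the 10 genes. Also named are called genes of the clock pathway list, 7 of its regulators in any case, and the 5 transcripts of highest and of lowest r with Bmal1, Nr1d1 and Per1; Usp2, Rora and Cipc were added after their values were seen. Permutations ran in Python with SciPy 1.17.1. Both the fit and the pair test were tested on simulated data. Alternatives were other background corrections, median scaling, the deposited log2 values, a detection filter, other variance models, a replicate block, and leaving out arrays; the pairs without arrays of raised atrial genes were added after seeing the data.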

Additional observations from a re-analysis of the deposited data

Results flagged for a closer look

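In 72 combinations of gene and group, 4 had a heart set apart from the other 3 of its group (the gap to the nearest heart, divided by the range of the group, was above Dixon's 95% critical value). Chance alone gives about 1 group in 20. Per2 in young WT mouse 3 was 6.05 against 7.42 to 7.45 in the others (ratio 0.979). Per1 in aged BACHD mouse 3 was 8.52 against 9.74 to 9.93 (ratio 0.863). Per3 in aged BACHD mouse 2 was 6.10 against 5.27 to 5.39 (ratio 0.853). Bhlhe41 in aged WT mouse 4 was 4.71 against 4.45 to 4.47 (ratio 0.927), and it was not detected in any heart.

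For Dbp every young BACHD heart was below the young WT mean and every aged BACHD heart above the aged WT mean, with mean differences of -0.74 and 0.62, a change of 1.36 on the log2 scale (limma adjusted p = 0.804, not called). Nfil3 showed the reverse, with 0.39 and -0.48, a change of -0.87 (adjusted p = 0.804, not called).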

How the results depend on the processing

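Of 1636 values of single clock genes under the alternatives, 1607 moved by less than 1 SD within groups; no called difference changed sign, 124 values that were not called did, 32 calls were lost and 15 were gained. The counts between genotypes at 3 mo, 0 of 10 and 0 of 22, stayed at 0 in every alternative. Median scaling called 1 core gene between BACHD ages (2 in the report), and a fit of only the 8 arrays of that comparison called 4 (Per1, Nr1d1, Nr1d2 and Bmal1). Without the arrays of raised atrial genes the core genes called were 1 (Per1) between genotypes at 15 mo and 0 between BACHD ages, and the other clock genes called were 2 between genotypes at 15 mo and 3 in the difference of differences. Leaving out each array in turn gave 0 to 2 core genes and 1 to 5 other genes between BACHD ages, 0 to 1 and 0 to 1 between WT ages, 0 to 0 and 0 to 2 between genotypes at 15 mo, and 0 to 0 and 0 to 2 in the difference of differences. Over all 25697 probes, median scaling called 858 in place of 1324 between BACHD ages, 138 in place of 230 between genotypes at 15 mo and 95 in place of 157 in the difference of differences. Without the arrays of raised atrial genes the last 2 counts were 410 and 320, without aged BACHD replicate 3 they were 441 and 332, and among probes detected on at least 4 arrays they were 127 and 87 (52 in place of 124 between genotypes at 3 mo). The pairs of core genes under an adjusted p of 0.05 were 1 in the report, 4 without background correction, 3 with median scaling, 0 without the 2 farthest hearts, and 0 over the 12 hearts without raised atrial genes. With the replicate number as a block (replicate block), 2 core genes and 5 other genes were called between BACHD ages (Csnk1e was added), and no core gene call changed in any comparison; same-numbered mice had correlations of deviations from -0.10 to 0.33, over 0.1 in 12 of 24 cases, and were not taken as pairs. The causes of these changes were not tested. Signals near background limit Per3, Ciart and the lowest hearts of Per2 and Bmal1: without background correction the Ciart log2 difference between BACHD ages was 1.20 in place of 2.38.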
